A study of Mus musculus with 14 samples.

Results

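The interleukin 1 and interleukin 18 family was described here through 6 genes of mouse macrophages: the cytokines Il1a, Il1b and Il18, the inhibitors Il1rn and Il18bp, and the receptor chain Il1rap. Each gene was located by its name in the deposited expression table, as an entry of its own or, failing that, as a member of an entry naming several genes. All 6 were found among the 39721 entries of the table, and all 6 were among the 11977 named entries that had at least 1 FPKM in at least 2 libraries and were tested. FPKM is the number of sequenced fragments scaled by the length of the transcript and by a factor for the library, so levels of different genes can be set side by side. How the library factor was set is not given in the sources used here. Il18bp had no entry of its own and was read from an entry that also names Rnf121, a ubiquitin ligase gene, so every value given for Il18bp is that of both genes together.

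Polyadenylated RNA was sequenced from bone marrow derived macrophages of male C57Bl6/J mice aged 6 to 12 weeks, which had been grown with L929-conditioned medium as the source of CSF-1, the macrophage growth factor. Cells received Poly I:C at 100 ng/mL or PBS for 24 h, were washed, and then received LPS or PBS for 6 h or 2 h. Poly I:C, a synthetic RNA with paired strands, imitates viral RNA, and LPS is a cell wall component of Gram-negative bacteria; the LPS dose of the second stimulus was not stated in the sources used here. The study asked how a first exposure to one such ligand changes the response to a second. At each time there were 2 libraries of Poly I:C then LPS, 2 of PBS then LPS, 2 of Poly I:C then PBS and 1 of PBS then PBS, 14 in all. Whether the replicates are separate animals or cultures is not stated, so p-values reflect only how far these samples spread, which may be a technical spread.

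Interleukin 1 alpha and interleukin 1 beta bind the same receptor, which needs the accessory chain encoded by Il1rap to signal, and Il1rn encodes the receptor antagonist that occupies the receptor without signalling. Interleukin 18 is held inactive in solution by the binding protein that Il18bp encodes, a gene known to respond to interferon. Interleukin 1 beta and interleukin 18 are made as precursors that caspase-1 cleaves inside inflammasomes, so a transcript level does not give the amount of active cytokine.

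Replicates of a group correlated at r = 0.974 to 0.988 across the tested entries, which are not independent replicates. Absolute depth is unknown, and the value of 1 fragment spanned a 3.08-fold range between libraries. Macrophage markers were present in every library, with Csf1r at 112 to 330.2 FPKM and Cd68 at 946 to 2180.0 FPKM. Lyz2, a lysozyme gene, carried most of the sum over 8 such genes, with a mean of 2524 FPKM in Poly I:C then LPS, against 11352 in PBS then LPS, at 6 h and 4241 against 14305 at 2 h. The sum was 5361 to 5430 FPKM with Poly I:C and 14982 to 16117 with PBS before 6 h of LPS, and 8303 to 8660 against 16047 to 20640 before 2 h of LPS. The list did not move as a whole: Cd14 had the higher mean with Poly I:C at 6 h, and at 2 h Cd68 (2137 against 1560.1 FPKM), Fcgr1 (563 against 37.1) and Mertk (18.9 against 10.7) did. Of markers of other cell types, 11 neutrophil genes summed to 7.25 to 8.36 against 1.73 to 2.12 FPKM at 6 h and to 0.603 to 1.07 against 2.35 to 2.46 at 2 h, with Elane, Ctsg and S100a9 at 0 in all libraries. Most of the 6 h sum was S100a8, at a mean of 6.41 against 1.43 FPKM, and Camp, at 1.36 against 0.418, and the other 9 genes were at or near 0. The 6 dendritic cell genes summed to 5.44 to 5.94 against 3.77 to 4.40 FPKM at 6 h and to 10.5 to 11.3 against 3.12 to 3.68 at 2 h, with Cd209a at 0. Xcr1 made up most of the 2 h sum with Poly I:C, at a mean of 8.43 against 1.47 FPKM, and was at 3.77 against 3.41 at 6 h. Ccr9, read from an entry that also names Gm17200, was at 1.55 against 0.434 FPKM at 6 h and 0.909 against 0.268 at 2 h. The Zbtb46 mean was higher with Poly I:C at 6 h and lower at 2 h, each time by less than the larger group SD. Flt3 and Siglech were near 0. The 7 stromal genes summed to 41.5 to 51.0 against 25.4 to 59.2 FPKM at 6 h and to 40.3 to 103.7 against 14.6 to 15.8 at 2 h, mostly the collagen genes Col1a1 and Col1a2. The 8 lymphocyte genes summed to at most 0.788 FPKM in any library, with Cd3e, Cd3g, Ncr1, Trbc1 and Trbc2 at 0. The part of these differences in the results below was not tested, and in such bulk samples fewer cells of a type and less RNA per cell cannot be told apart.

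The regions around the RefSeq transcription starts of the 3 cytokines and of Il18bp are shown so that they can be read beside the effect of Poly I:C before LPS, which had the same direction at 6 h and 2 h for Il1a, Il1b and Il18bp and opposite directions for Il18. Each runs 5′ to 3′ on the strand of the gene, from 250 bases before the start to 50 bases after it, in build GRCm38.p6. Capitals mark matches to the motifs named after the sequences, none of which overlap each other.
Il1a: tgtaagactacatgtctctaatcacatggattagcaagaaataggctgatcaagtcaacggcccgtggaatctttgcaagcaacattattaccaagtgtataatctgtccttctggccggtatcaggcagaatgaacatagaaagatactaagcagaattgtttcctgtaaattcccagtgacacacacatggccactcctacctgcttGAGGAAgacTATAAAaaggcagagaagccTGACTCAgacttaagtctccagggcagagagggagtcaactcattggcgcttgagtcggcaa
Il1b: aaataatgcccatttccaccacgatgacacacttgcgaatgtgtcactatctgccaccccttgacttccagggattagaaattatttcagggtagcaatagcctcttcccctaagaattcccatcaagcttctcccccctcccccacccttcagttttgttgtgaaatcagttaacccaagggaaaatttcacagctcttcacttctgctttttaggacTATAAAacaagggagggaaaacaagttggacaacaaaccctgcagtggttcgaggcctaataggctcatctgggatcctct
Il18: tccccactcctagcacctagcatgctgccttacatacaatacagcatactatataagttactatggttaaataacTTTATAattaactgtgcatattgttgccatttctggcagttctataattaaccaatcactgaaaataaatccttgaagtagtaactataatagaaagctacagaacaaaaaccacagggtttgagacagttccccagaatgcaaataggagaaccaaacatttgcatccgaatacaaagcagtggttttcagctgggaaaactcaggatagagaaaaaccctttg
Il18bp: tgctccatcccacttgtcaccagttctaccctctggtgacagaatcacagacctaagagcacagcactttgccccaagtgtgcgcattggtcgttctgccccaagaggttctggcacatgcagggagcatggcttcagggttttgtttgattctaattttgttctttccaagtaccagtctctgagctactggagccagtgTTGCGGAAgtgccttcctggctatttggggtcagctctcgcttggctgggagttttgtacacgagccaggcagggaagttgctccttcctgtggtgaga
Il1a and Il1b lie on the minus strand of chromosome 2 and their regions are chr2:129309923-129310222 and chr2:129371090-129371389. The Il18 region is chr9:50554450-50554749 on the plus strand, and the Il18bp region is chr7:102018183-102018482 on the minus strand.

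In the Il1a region the capitals are GAGGAA, a core of PU.1 sites, from base -41, TATAAA from base -32 and TGACTCA, an AP-1 site, from base -12 relative to the start. In the Il1b region they are TATAAA from base -31. In the Il18 region TATAAA was found on the other strand only, from base -175, and in the Il18bp region TTGCGGAA, a match to the CEBP motif, began at base -49. Searches on both strands of 32851 RefSeq promoters of the same length found TATAAA in 13.6%, GAGGAA in 28.3%, the AP-1 motif TGANTCA in 7.81% and the CEBP motif TTGCNNAA in 10.8% of them. The interferon-stimulated response element, in 3.44% of all promoters, matched among the 6 genes only at Il1rap, from base +21. Matches to the NF-kB motif, in 4.51% of all promoters, to the interferon gamma motif TTCNNNGAA, in 8.30%, and to the composite element of PU.1 and IRF proteins, in 2.72%, were found in none of these windows. The matches are a description of the letters, and nothing about a factor follows from a window without one.

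Among the cytokines, Il1a and Il1b were highest wherever LPS followed Poly I:C. At 6 h Il1a was at 1550.4 and 1384 FPKM in Poly I:C then LPS, 158 and 149 in PBS then LPS, 7.41 and 3.60 in Poly I:C then PBS, and 0.317 in PBS then PBS. Il1a at 2 h was at 2393 and 2614 FPKM in Poly I:C then LPS, 134 and 140.0 in PBS then LPS, 62.1 and 12.0 in Poly I:C then PBS, and 0.716 in PBS then PBS. No 2 of the 8 groups overlapped, and the libraries given Poly I:C then LPS were the 4 highest. Before LPS, Poly I:C rather than PBS gave 9.58 times the mean Il1a FPKM at 6 h, a log2 fold change of 3.25 ± 0.56 on the log2(FPKM + 1) scale (SE; limma adjusted p = 0.000822), and 18.3 times at 2 h, 4.18 ± 0.56 (limma adjusted p = 9.89e-05). The entry lies at chr2:129297370-129309972 and spans the gene, on the minus strand, together with Gm14023 on the plus strand, whose own entry was at 0 to 1.05 FPKM.

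Il1b, which lies beside Il1a on chromosome 2, had a narrower difference. At 6 h it was at 2824 and 2533 FPKM in Poly I:C then LPS, 656 and 584 in PBS then LPS, 4.99 and 3.28 in Poly I:C then PBS, and 0.330 in PBS then PBS. Il1b at 2 h was at 2197 and 2506 FPKM in Poly I:C then LPS, 679 and 489.6 in PBS then LPS, 38.5 and 14.6 in Poly I:C then PBS, and 2.71 in PBS then PBS. The libraries given Poly I:C then LPS were again the 4 highest, whereas the 6 h and 2 h libraries of PBS then LPS overlapped. Poly I:C rather than PBS before LPS gave 4.32 times the mean Il1b FPKM at 6 h (log2 2.11 ± 0.35, limma adjusted p = 0.000714) and 4.02 times at 2 h (2.02 ± 0.35, limma adjusted p = 0.000623). Relative to Il1b, Il1a stood at 0.549 and 0.546 times its FPKM in Poly I:C then LPS at 6 h, against 0.240 and 0.254 in PBS then LPS, and at 1.09 and 1.04 against 0.197 and 0.286 at 2 h. The Il1b entry spans chr2:129364562-129376162, where an antisense gene, Il1bos, is annotated on the plus strand. The entry Gm14047 at the same locus was at 0 to 4.33 FPKM, and whether the counting used the strand of the kit is not given in the sources used here.

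**Figure D1:**
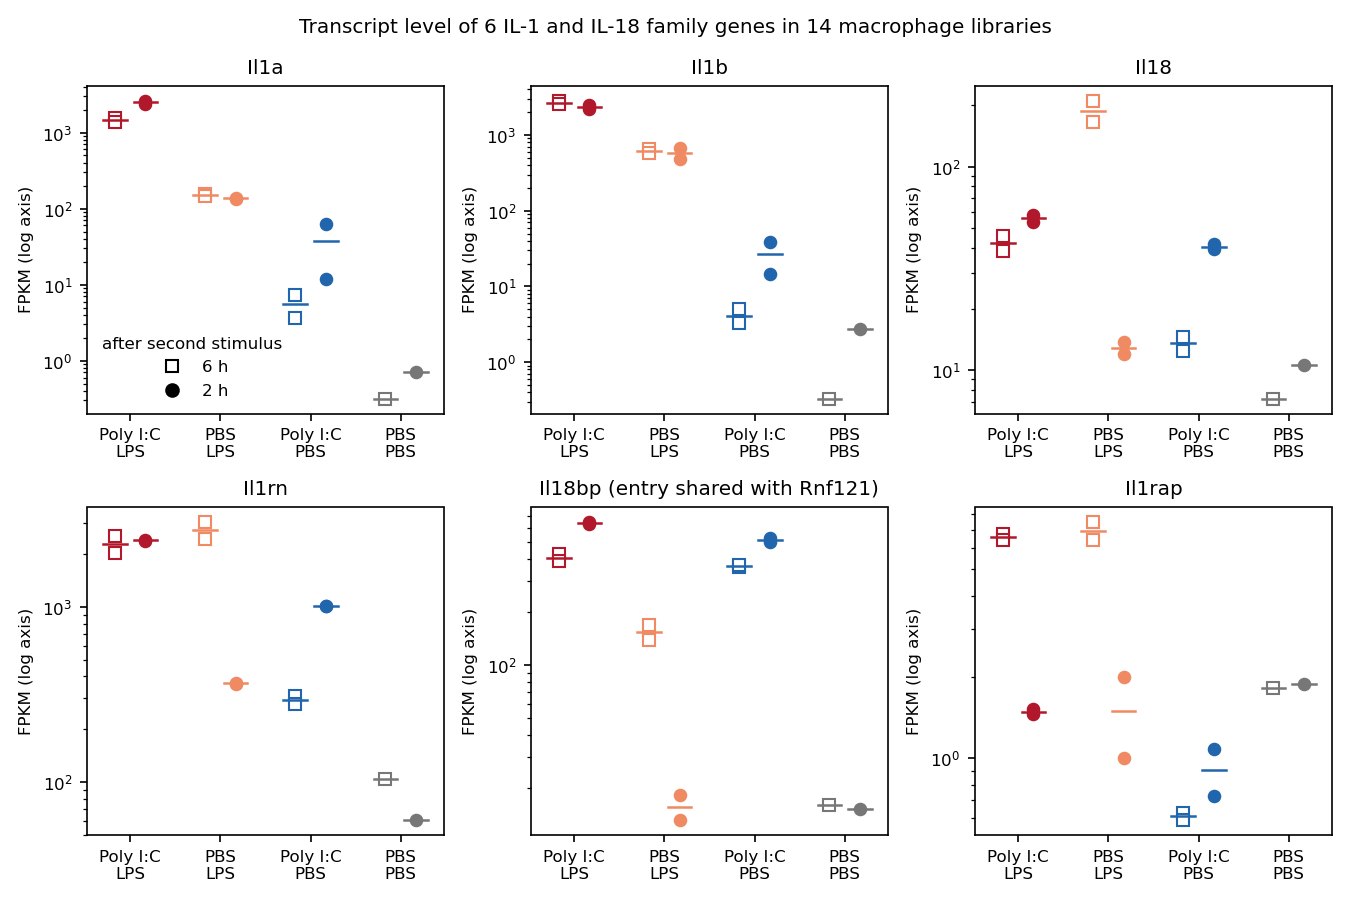
FPKM on a log axis for the 6 genes, 1 panel each, with the first and second stimulus on the horizontal axis. Open squares are single libraries at 6 h, filled circles single libraries at 2 h and short lines the mean. Il1a and Il1b are highest in both Poly I:C then LPS groups, Il18 in PBS then LPS at 6 h with 165 and 210.4 FPKM, and the 4 Poly I:C groups of Il18bp lie above all PBS groups.

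Il18 had another order of groups and was highest 6 h after LPS in cells that had not seen Poly I:C. At 6 h it was at 45.8 and 38.4 FPKM in Poly I:C then LPS, 165 and 210.4 in PBS then LPS, 14.6 and 12.4 in Poly I:C then PBS, and 7.24 in PBS then PBS. Il18 at 2 h was at 58.2 and 53.2 FPKM in Poly I:C then LPS, 13.7 and 12.0 in PBS then LPS, 39.3 and 41.6 in Poly I:C then PBS, and 10.5 in PBS then PBS. With Poly I:C before LPS it was therefore lower at 6 h and higher at 2 h, and in neither case did the groups overlap. The mean was 0.224 times that of PBS then LPS at 6 h (log2 -2.13 ± 0.15, limma adjusted p = 2.47e-06) and 4.33 times at 2 h (2.03 ± 0.15, limma adjusted p = 1.5e-06). In the order of the 8 groups, Poly I:C then LPS at 6 h overlapped Poly I:C then PBS at 2 h, and Poly I:C then PBS at 6 h overlapped PBS then LPS at 2 h. The Il18 entry at chr9:50533087-50581901 shares its locus with entries of Bco2, at 0.708 to 9.45 FPKM, and Tex12, at 0 to 0.637 FPKM, both annotated on the opposite strand.

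Of the inhibitors, Il1rn was abundant in all groups given a ligand. At 6 h it was at 2527 and 2018 FPKM in Poly I:C then LPS, 2443 and 3034 in PBS then LPS, 311 and 279 in Poly I:C then PBS, and 104 in PBS then PBS. Il1rn at 2 h was at 2422 and 2383 FPKM in Poly I:C then LPS, 364 and 367 in PBS then LPS, 1009 and 1005 in Poly I:C then PBS, and 60.5 in PBS then PBS. With LPS as the second stimulus, Poly I:C and PBS libraries overlapped at 6 h and were separate at 2 h. The log2 fold change was -0.27 ± 0.15 at 6 h (limma adjusted p = 0.158), an interval that spans 0 at 2 SE, and 2.71 ± 0.15 at 2 h (limma adjusted p = 1.93e-07), which is 6.57 times the mean FPKM. The gene and its entry lie at chr2:24336853-24351494 on the plus strand, with no other annotated gene in the locus.

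The entry of Il18bp and Rnf121 followed Poly I:C with or without LPS. At 6 h it was at 427 and 388 FPKM in Poly I:C then LPS, 139 and 169 in PBS then LPS, 360.3 and 369 in Poly I:C then PBS, and 16.0 in PBS then PBS. The 2 h values were 634 and 647 FPKM in Poly I:C then LPS, 18.1 and 13.1 in PBS then LPS, 525 and 503 in Poly I:C then PBS, and 15.1 in PBS then PBS. All 8 Poly I:C libraries lay above all 6 PBS libraries, and PBS then LPS at 2 h could not be told from either PBS then PBS library. Poly I:C rather than PBS before LPS gave 2.65 times the mean at 6 h (log2 1.40 ± 0.15, limma adjusted p = 4.02e-05) and 41.0 times at 2 h (5.29 ± 0.15, limma adjusted p = 4.31e-09). The entry covers chr7:102015079-102065469, and Il18bp itself is annotated on the minus strand at 102014885 to 102018690, so that part of the gene lies outside the entry.

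The receptor chain Il1rap was weak throughout, and its highest levels came 6 h after LPS. At 6 h it was at 6.78 and 6.44 FPKM in Poly I:C then LPS, 7.46 and 6.42 in PBS then LPS, 0.631 and 0.592 in Poly I:C then PBS, and 1.82 in PBS then PBS. At 2 h it was at 1.46 and 1.52 FPKM in Poly I:C then LPS, 1.00 and 2.00 in PBS then LPS, 0.728 and 1.08 in Poly I:C then PBS, and 1.89 in PBS then PBS. The 4 libraries taken 6 h after LPS were the highest, with overlap between those given Poly I:C and those given PBS first. Poly I:C before LPS changed Il1rap by -0.06 ± 0.20 at 6 h (limma adjusted p = 0.835) and 0.02 ± 0.20 at 2 h (limma adjusted p = 0.934) on the log2 scale, and both signs turn when PBS-then-LPS replicate 1 of that time is left out, to 0.037 at 6 h and -0.27 at 2 h. Its locus, chr16:26581704-26755502 on the plus strand, also holds the antisense gene Gm20319, with an entry at 0 to 3.98 FPKM.

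Counted over the family, Poly I:C before LPS raised 3 genes and lowered 1 at 6 h and raised 5 and lowered 0 at 2 h. Across all tested entries 23.7% were higher and 25.9% lower at 6 h (49.6% either way), and 32.6% were higher and 28.5% lower at 2 h (61.1% either way), by the same limma call at an adjusted p under 0.05. The median log2 fold change of the 6 genes was 0.67 against -0.00 for all tested entries at 6 h, and 2.37 against 0.05 at 2 h. The comparisons that follow share libraries with this one and with each other, so their values are not independent.

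LPS after PBS gives the response without earlier Poly I:C. Against PBS then PBS, 6 of the 6 genes were higher at 6 h and 3 at 2 h, and 0 were lower at either time. Among all tested entries 22.9% were higher and 20.6% lower at 6 h (43.4% either way), and 9.47% were higher and 6.39% lower at 2 h (15.9% either way). Il1b changed most, by 8.87 ± 0.43 at 6 h (limma adjusted p = 1.41e-07) and 7.28 ± 0.43 at 2 h (2.83e-06), followed by Il1a at 6.87 ± 0.68 (2.13e-05) and 6.33 ± 0.68 (0.000144). Il1rn rose by 4.70 ± 0.18 at 6 h and 2.57 ± 0.18 at 2 h. Il18, the Il18bp entry and Il1rap passed at 6 h, at 4.51 ± 0.18, 3.18 ± 0.19 and 1.49 ± 0.24, while at 2 h they stood at 0.26 ± 0.18, 0.03 ± 0.19 and -0.24 ± 0.24. The lone PBS-then-PBS library of each time is assumed in these standard errors to vary like the other groups. The 2 h value of Il18bp turns to -0.011 with the PBS-then-PBS libraries of both times pooled and to -0.19 without PBS-then-LPS replicate 1, and that of Il1rap to 0.057 without the same library.

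Those 3 genes also changed between 6 h and 2 h of LPS after PBS, a comparison with 2 libraries on each side. Il18 was higher at 6 h by 3.76 ± 0.15 (limma adjusted p = 5.5e-08), the Il18bp entry by 3.23 ± 0.15 (1.37e-07), Il1rn by 2.89 ± 0.15 (2.55e-07) and Il1rap by 1.69 ± 0.20 (6.13e-05). Il1a and Il1b did not pass, at 0.16 ± 0.56 and 0.10 ± 0.35, and Il1b was at -0.13 without PBS-then-LPS 2 h replicate 2. Of all tested entries 23.4% were higher at 6 h and 26% lower (49.4% either way), against 4 higher and 0 lower among the 6 genes.

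LPS after Poly I:C, set against PBS after Poly I:C, raised 5 of the 6 genes at 6 h and 3 at 2 h, and lowered 0 at either time. Of all tested entries 21.7% were higher and 22.2% lower at 6 h (43.9% either way), and 14% were higher and 8.72% lower at 2 h (22.8% either way). Il1b rose by 9.05 ± 0.35 at 6 h (limma adjusted p = 7.48e-08) and 6.56 ± 0.35 at 2 h (2.15e-06), and Il1a by 7.88 ± 0.56 (1.82e-06) and 6.45 ± 0.56 (2.59e-05). Il1rn rose by 2.93 ± 0.15 and 1.25 ± 0.15. Il1rap rose at 6 h, by 2.24 ± 0.20 on the log2(FPKM + 1) scale. Without the added 1, its mean FPKM was 10.8 times that of Poly I:C then PBS, which was only 0.611. Il18 rose at 6 h by 1.57 ± 0.15 and stood at 0.45 ± 0.15 at 2 h (limma adjusted p = 0.0546). The Il18bp entry was not called at either time, at 0.16 ± 0.15 and 0.32 ± 0.15.

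Between 6 h and 2 h of LPS after Poly I:C, Il1rap was higher by 1.61 ± 0.20 (limma adjusted p = 0.000174) and the Il18bp entry lower by -0.65 ± 0.15 (0.00667), so 1 gene was higher and 1 lower where 14.7% of all tested entries were higher and 25.3% lower (40% either way). Leaving out replicate 2 of Poly I:C then LPS at 6 h ends the Il18bp call, at -0.58 (limma adjusted p = 0.0554). Il1a stood at -0.77 ± 0.56, Il18 at -0.40 ± 0.15, Il1b at 0.19 ± 0.35 and Il1rn at -0.09 ± 0.15, of which Il1rn turns to 0.073 without that same library.

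Poly I:C followed by PBS was set against the lone PBS-then-PBS library of the same time after the wash. Whether a difference was left from the first stimulus or arose after the wash was not tested. At 6 h 5 genes were higher and 1 lower, and at 2 h 5 were higher and 0 lower, where 18.4% and 24.9% of all tested entries were higher and 16.1% and 22.4% lower (34.5% and 47.3% called either way). The Il18bp entry was higher by 4.43 ± 0.19 at 6 h (limma adjusted p = 1.14e-07) and 5.00 ± 0.19 at 2 h (2.71e-08). Il1rn was higher by 1.49 ± 0.18 and 4.03 ± 0.18, and Il18 by 0.81 ± 0.18 and 1.84 ± 0.18. Il1b was higher by 1.93 ± 0.43 and 2.74 ± 0.43, but the 6 h call is lost with the PBS-then-PBS libraries of both times pooled, at 1.19 (limma adjusted p = 0.0574). Il1a was higher by 2.24 ± 0.68 at 6 h (0.0282), a call lost without Poly I:C-then-PBS replicate 1, at 1.81 (limma adjusted p = 0.118), and without a filter on low values, at the same 2.24 (0.0941), and by 4.06 ± 0.68 at 2 h. Its 2 libraries of Poly I:C then PBS at 2 h, at 62.1 and 12.0 FPKM, lie farther apart on the log2 scale than those of any other group of Il1a. Il1rap was lower by -0.81 ± 0.24 at 6 h (limma adjusted p = 0.0263), a call lost without replicate 1 or replicate 2 of Poly I:C then PBS (0.0622 and 0.0756) and without the filter (0.0576). At 2 h Il1rap stood at -0.61 ± 0.24 (limma adjusted p = 0.0617) and is called with those libraries pooled, at -0.59 (0.0216).

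Between 6 h and 2 h of PBS after Poly I:C, 5 genes were lower and 0 higher, where 18% of all tested entries were lower and 12.3% higher (30.4% either way). Il1b was lower by -2.30 ± 0.35 (limma adjusted p = 0.00118), Il1a by -2.20 ± 0.56 (0.0142), Il1rn by -1.77 ± 0.15 (5.09e-05), Il18 by -1.52 ± 0.15 (0.000109) and the Il18bp entry by -0.49 ± 0.15 (0.0326). The Il18bp call is lost when any of the 4 libraries is left out, at -0.46 to -0.52, and that of Il1a without Poly I:C-then-PBS 6 h replicate 2, at -1.77 (limma adjusted p = 0.11). Without the filter neither is called (0.0656 for Il18bp, 0.0574 for Il1a), and with a replicate block the Il18bp value has an adjusted p of 0.0502. The lone PBS-then-PBS libraries also differed between the times. At 6 h against 2 h, Il1b was at 0.330 against 2.71 FPKM, Il1a at 0.317 against 0.716 and Il18 at 7.24 against 10.5. Il1rn, at 104 against 60.5 FPKM, and the Il18bp entry, at 16.0 against 15.1, went the other way. The part of this shift in the changes above was not tested.

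**Figure D2:**
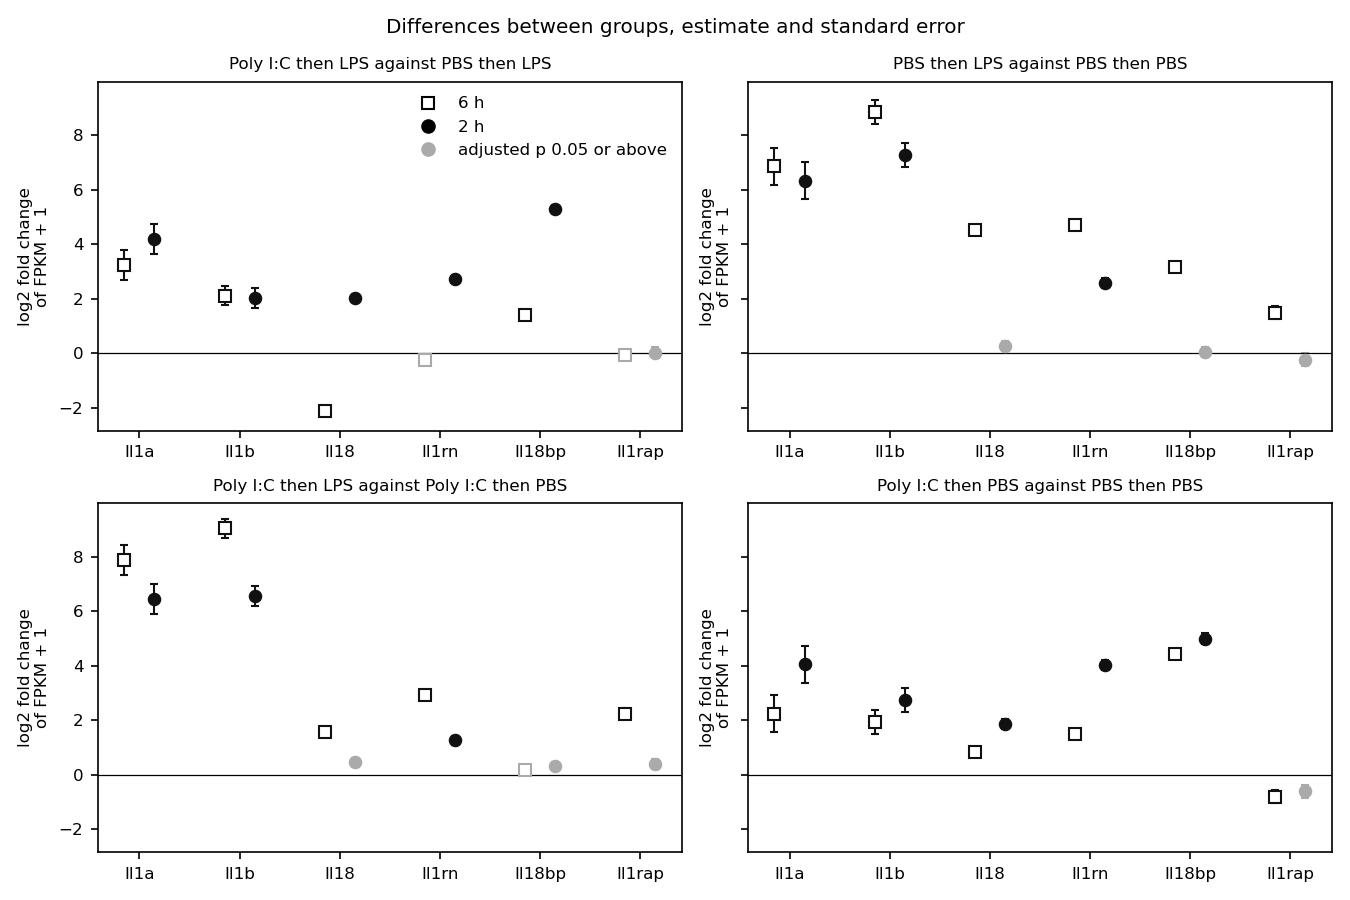
Log2 fold change of FPKM + 1 with its SE for the 6 genes in 4 comparisons, 1 panel each, at 6 h (open squares) and 2 h (filled circles); grey marks an adjusted p of 0.05 or above. With Poly I:C before LPS, Il18 is at -2.13 at 6 h and 2.03 at 2 h, while Il1b is at 2.11 and 2.02.

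Whether Poly I:C changed the size of the LPS response was tested as an interaction, the LPS effect after Poly I:C minus the LPS effect after PBS. At 6 h it was below 0 and called for 3 genes and above 0 for none, where 16.7% of all tested entries were lower and 12.7% higher (29.4% either way). These were the Il18bp entry at -3.02 ± 0.24 (limma adjusted p = 1.46e-05), Il18 at -2.94 ± 0.24 (1.63e-05) and Il1rn at -1.76 ± 0.23 (0.000379). Il1a and Il1b did not pass, at 1.01 ± 0.88 and 0.18 ± 0.56, and with a pseudocount of 0.1 in place of 1 they turn to -0.40 and -1.16; Il1b is also at -0.062 without Poly I:C-then-PBS replicate 2. Il1rap stood at 0.75 ± 0.31 (limma adjusted p = 0.0997), and is called at the same value with the 6 h libraries alone (0.0454).

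At 2 h the interaction was called for Il1rn, at -1.32 ± 0.23 (limma adjusted p = 0.0113), where 1.77% of all tested entries were lower and 2.52% higher (4.29% either way). Leaving out replicate 2 of Poly I:C then LPS ends that call, at -1.31 (0.0513), and so does pooling the PBS-then-PBS libraries of both times, at -0.94 (0.125). Il1rap, at 0.63 ± 0.31, is called without PBS-then-LPS replicate 2, at 0.92 (limma adjusted p = 0.0422). The other genes stood at 0.12 ± 0.88 for Il1a, -0.72 ± 0.56 for Il1b, 0.19 ± 0.24 for Il18 and 0.29 ± 0.24 for the Il18bp entry. Il1a turns to -0.88 with a pseudocount of 0.1, to -1.02 without Poly I:C-then-PBS replicate 2 and to -0.069 with the control libraries pooled, and Il18 turns to -0.053 when they are.

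The effect of Poly I:C before LPS differed between 6 h and 2 h for 3 genes, Il18, Il18bp and Il1rn, all lower at 6 h, where 25.3% of all tested entries were lower and 19.1% higher (44.4% either way). The difference was -4.16 ± 0.21 for Il18 (limma adjusted p = 4.99e-07), -3.88 ± 0.21 for the Il18bp entry (7.31e-07) and -2.98 ± 0.21 for Il1rn (3.27e-06). It was -0.93 ± 0.79 for Il1a, 0.09 ± 0.50 for Il1b and -0.08 ± 0.28 for Il1rap, none of which passed. Il1b turns to -0.15 without PBS-then-LPS 2 h replicate 1 and to -0.0086 without Poly I:C-then-LPS 2 h replicate 1, and Il1rap to 0.21 without PBS-then-LPS replicate 1 of 2 h and to 0.015 without that of 6 h. The 2 times have separate libraries.

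Each cytokine was also set against its inhibitor within a library, as the log2 ratio of FPKM + 1, in which the scaling between libraries cancels but for the added 1. Il1b relative to Il1rn was at 0.16 and 0.33 in Poly I:C then LPS, against -1.89 and -2.37 in PBS then LPS, at 6 h. At 2 h it was at -0.14 and 0.07 in Poly I:C then LPS, against 0.90 and 0.41 in PBS then LPS. The order of these groups thus turned between the times, without overlap at either. For Il1a the ratio was -0.70 and -0.54 against -3.94 and -4.34 at 6 h, and -0.02 and 0.13 against -1.44 and -1.39 at 2 h. Il1a was closer to its inhibitor with Poly I:C at both times.

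Il18 relative to the Il18bp entry was at -3.19 and -3.30 in Poly I:C then LPS, against 0.25 and 0.32 in PBS then LPS, at 6 h, and at -3.42 and -3.58 against -0.38 and -0.11 at 2 h. In Poly I:C then PBS it was at -4.53 and -4.78, against -1.05 in PBS then PBS, at 6 h, and at -3.70 and -3.57 against -0.48 at 2 h. All 8 Poly I:C libraries were at -3.19 or below, and all 6 PBS libraries at -1.05 or above. The Il1b ratio to Il1rn in Poly I:C then PBS was -5.70 and -6.03, against -6.30 in PBS then PBS, at 6 h, and -4.68 and -6.01 against -4.05 at 2 h. The added 1 weighs on these values, since Il1b was as low as 0.330 FPKM in PBS then PBS at 6 h. Without it the FPKM ratios were 0.0161 and 0.0117 against 0.00317 at 6 h, and 0.0381 and 0.0146 against 0.0448 at 2 h. These ratios are descriptions with no test, and the deposited values concern transcripts, not proteins.

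**Figure D3:**
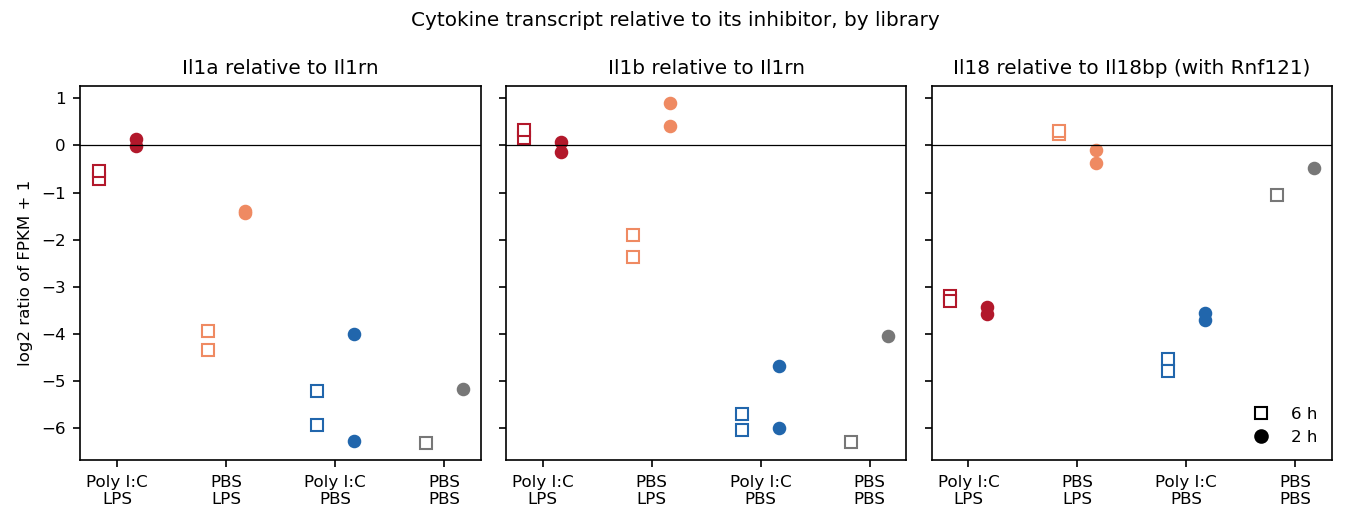
Log2 ratio of FPKM + 1 of each cytokine to its inhibitor, 1 panel a pair, by first and second stimulus, with open squares for single libraries at 6 h and filled circles for single libraries at 2 h. Il18 relative to Il18bp is at -3.19 or below in every Poly I:C library and at -1.05 or above in every PBS library.

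Other genes of the pathway were taken from lists of the superfamily's other ligands, its receptor chains, receptor signalling, and maturation and release. The ligand list held 6 genes, some under an older and a newer name, all with an entry, of which 3 were tested, all weak: Il33, an alarmin, and Il1f6 and Il1f9, which encode interleukin 36 cytokines. Poly I:C before LPS lowered 1 and raised 0 at 6 h and raised 2 and lowered 0 at 2 h, where 49.6% of all tested entries were called either way at 6 h and 61.1% at 2 h. Il33 fell at 6 h, to a mean of 0.169 FPKM in Poly I:C then LPS, against 2.40 in PBS then LPS (log2 -1.49 ± 0.25), and at 2 h Il1f9 changed by 0.68 ± 0.19 and Il1f6 by 0.65 ± 0.21. The list's median was -0.30 at 6 h and 0.65 at 2 h.

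Of 9 receptor chains 5 were tested, and all 5 had means under 6 FPKM in every group. Poly I:C before LPS raised 2 and lowered 3 at 6 h, with a median of -0.44, and raised 2 and lowered 2 at 2 h, with a median of -0.13, where 49.6% and 61.1% of all tested entries were called either way. Il1rl2, the interleukin 36 receptor chain that pairs with Il1rap, rose to a mean of 5.76 FPKM in Poly I:C then LPS, against 1.14 in PBS then LPS, at 6 h (log2 1.64 ± 0.19) and to 2.64 against 0.648 at 2 h (1.15 ± 0.19). Il1rl1, the interleukin 33 receptor, rose by 1.15 ± 0.19 and 0.75 ± 0.19. Il1r1, the signalling receptor of interleukin 1, fell to 0.199 FPKM against 1.21 at 6 h (-0.88 ± 0.15) and to 0.441 against 1.19 at 2 h (-0.60 ± 0.15). Il18rap, the accessory chain of the interleukin 18 receptor, fell at 6 h by 1.09 on the log2 scale and was at -0.13 ± 0.14 at 2 h. Il18r1, the binding chain, was not tested, as it was at 0 in all groups but PBS then LPS at 6 h, with a mean of 0.0134 FPKM.

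All 16 receptor signalling genes were tested, of which 3 rose and 1 fell at 6 h (median 0.18) and 8 rose and 0 fell at 2 h (median 0.46). At both times the share called either way was below the 49.6% and 61.1% of all tested entries. By direction, 23.7% of all tested entries were higher and 25.9% lower at 6 h, and 32.6% higher and 28.5% lower at 2 h. Ikbkb, a kinase that releases NF-kB, rose by 2.15 ± 0.11 at 6 h (limma adjusted p = 3.19e-07), and Irak3, an inhibitor of the receptor-associated kinases, by 0.53 ± 0.13 and Irak2, one of these kinases, by 0.35 ± 0.11. Myd88, the adaptor of interleukin 1 and most toll-like receptors, fell at 6 h by 0.80 on the log2 scale and rose at 2 h by 1.17 ± 0.14. At 2 h Irak3 rose by 1.59 ± 0.13 and Irak2 by 1.53 ± 0.11. The difference between the times was called for Myd88, at -1.97 ± 0.20, and for Ikbkb, at 1.26 ± 0.15.

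The maturation and release list had 13 entries tested, Nlrp1a and Nlrp1b sharing 1. Poly I:C before LPS raised 4 and lowered 8 at 6 h, with a median of -0.61, and raised 8 and lowered 2 at 2 h, with a median of 1.76; the medians of all tested entries were -0.00 and 0.05, with 23.7% higher and 25.9% lower at 6 h and 32.6% higher and 28.5% lower at 2 h. Casp1, the protease that matures interleukin 1 beta and interleukin 18, was at a mean of 351 FPKM in Poly I:C then LPS, against 531 in PBS then LPS, at 6 h, and at 505 against 59.1 at 2 h. That is a change of -0.59 ± 0.17 at 6 h (limma adjusted p = 0.0168) and 3.09 ± 0.17 at 2 h (2.33e-07). Casp1 has 2 entries, of which the more abundant was used.

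Mefv, which encodes pyrin, rose at both times, by 1.36 ± 0.18 and 2.75 ± 0.18, while Pycard, the adaptor of most inflammasomes, fell by 1.23 and 1.18 on the log2 scale. Casp4, which senses intracellular LPS, rose by 0.44 ± 0.14 and 2.63 ± 0.14, and Aim2, a DNA sensor, fell by 0.94 at 6 h and rose by 2.44 ± 0.16 at 2 h. The shared entry of Nlrp1a and Nlrp1b fell by 1.84 at 6 h, and Capn2, a calpain subunit, by 1.26 and 0.65. The difference between the times was below 0 and called for 11 of the 13 entries and above 0 for 0, where 25.3% of all tested entries were lower and 19.1% higher. The interaction with LPS at 6 h was below 0 and called for 8, including Casp1 at -2.57 ± 0.27 and Aim2 at -2.53 ± 0.26, and above 0 for 2, Nlrp3, an inflammasome sensor, at 1.65 ± 0.34 and Mefv at 1.09 ± 0.28, where 16.7% of all tested entries were lower and 12.7% higher.

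**Figure D4:**
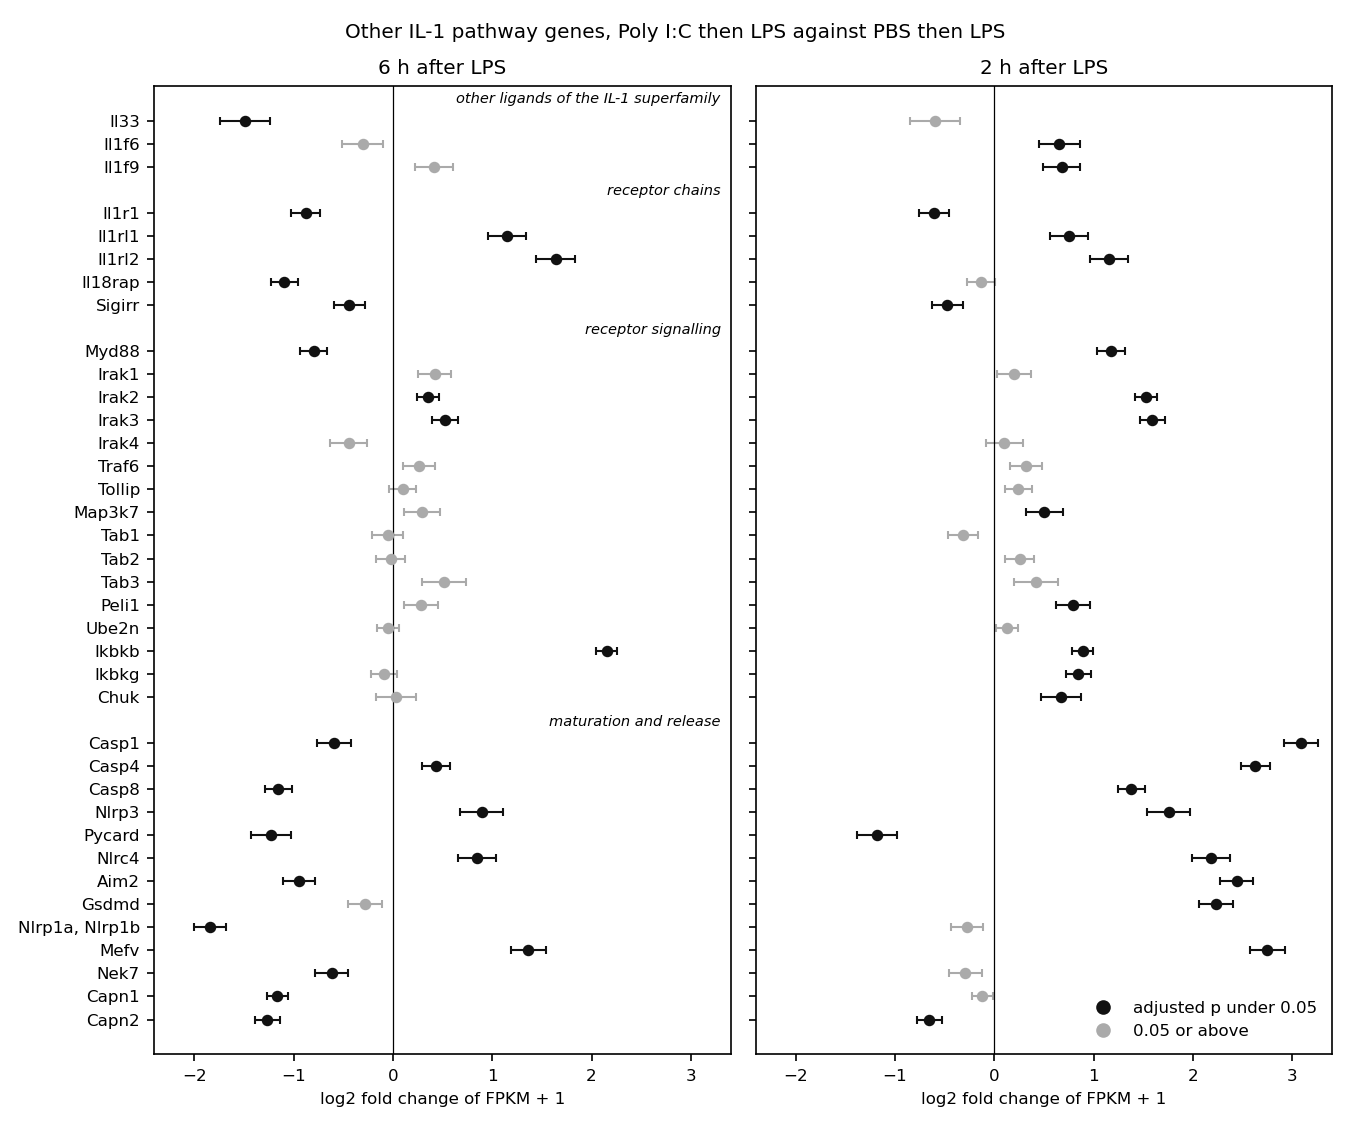
Log2 fold change of FPKM + 1 with its SE for the tested genes of 4 pathway lists, Poly I:C then LPS against PBS then LPS, at 6 h on the left and 2 h on the right; grey marks an adjusted p of 0.05 or above. In the lowest block Casp1 is at -0.59 at 6 h and 3.09 at 2 h.

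Over the 14 libraries, Il1a and Il1b had a Pearson r of 0.970 with each other on the log2(FPKM + 1) scale, Il18 and Il1rn one of 0.880, and the Il18bp entry and Il1rap one of 0.012. These are descriptions, since libraries of 1 group share their stimuli and all libraries share a scaling. Among 8380 entries that name 1 gene and reach a group mean of 5 FPKM, the 3 most alike were Srgn (0.985), Ccdc94 (0.982) and Il6 (0.980) for Il1a, and Pde4b (0.983), Il27 (0.977) and Socs3 (0.972) for Il1b. For Il18 they were Ccdc25 (0.993), Igf2bp2 (0.989) and Ppp2r5a (0.984), and for Il1rn they were Snx10 (0.991), Ptges (0.989) and Trim21 (0.981). For the Il18bp entry they were Slfn4 (0.996), Slfn1 (0.996) and Apol9b (0.987), and for Il1rap Alcam (0.973), Fut8 (0.973) and Dgkh (0.963).

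These most alike genes differ in how they follow Poly I:C before LPS. Slfn4, a schlafen family gene, changed by 2.45 ± 0.29 at 6 h and 8.79 ± 0.29 at 2 h, and Apol9b, an apolipoprotein L gene, by 1.33 ± 0.15 and 6.74 ± 0.15, beside 1.40 and 5.29 for the Il18bp entry. Igf2bp2, which encodes an RNA-binding protein, changed by -2.30 ± 0.15 and 1.66 ± 0.15, beside -2.13 and 2.03 for Il18. Changes were smaller for Ccdc25, at -1.25 ± 0.15 and 0.98 ± 0.15, and for Ppp2r5a, at -0.92 ± 0.10 and 0.69 ± 0.10. Il6, the cytokine interleukin 6, changed by 3.57 ± 0.46 and 3.74 ± 0.46, beside 3.25 and 4.18 for Il1a. Socs3, an inhibitor of cytokine receptor signalling, was not called at either time although its r with Il1b was 0.972.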

How the data were processed

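A stranded mRNA kit and paired 76 bp reads were used for the 14 libraries, per the labels' protocols. Per the submitters' processing notes, TopHat2, Cufflinks and Cuffnorm were run with build mm9; versions and options are not given in the sources used here. The authors deposited FPKM values, 1 column per library, with no counts. Of 33795 entries that name 1 gene of GENCODE M21, 33738 overlap it in GRCm38 and 13315 share its start and end, so GRCm38 is the build printed. Without counts there are no counting intervals; steps between low values gave what 1 fragment is worth (91 of 91 library pairs within 0.1 log2).

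The fit used log2(FPKM + 1), which understates changes of weak genes, for named entries reaching 1 FPKM in 2 or more libraries, 832 of which name several genes. It was made with limma 3.58.1 in R 4.3.3, with 1 mean for each group, a spread that may vary with intensity, 6 residual and a median of 3.99 prior degrees of freedom, and 2-sided p-values adjusted by Benjamini-Hochberg over 11977 entries. On simulated data with a normal spread, only Poly I:C then LPS against PBS then LPS at 2 h was tried. Interactions and comparisons with the lone PBS-then-PBS libraries were not tried in this way. Python 3.11.15 and pandas 2.3.3 read the tables. Promoters are from RefSeq tables of GRCm38.p6, and all 6 genes matched.

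The 6 genes and the lists were chosen with earlier results of these data known. The text names the 6 genes, up to 4 called members of largest change for each list and comparison, which may then be given in other comparisons too, and the 3 entries of highest r for each of the 6. Some list members are not reported here. Alternatives were a smaller pseudocount of 0.1, tests without the filter, scaling by medians of ratios, a spread without trend, each time fitted by itself, pooled PBS-then-PBS libraries, a replicate block, and leaving out replicates in turn.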

Additional observations from a re-analysis of the deposited data

Results flagged for a closer look

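Results were listed for a closer look where an effect of the same contrast differed between 2 conditions by its own limma test. At 6 h the LPS effect after Poly I:C minus that after PBS was -2.94 for Il18, -3.02 for the entry of Il18bp and Rnf121, and -1.76 for Il1rn. At 2 h it was -1.32 for Il1rn. The effect of Poly I:C before LPS at 6 h minus that at 2 h was -4.16 for Il18, -3.88 for the Il18bp entry and -2.98 for Il1rn. No library could be tested as standing apart from its group, since groups held 1 or 2 libraries.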

How the results depend on the processing

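Among the recomputed values of single genes, 778 kept their direction and their side of the threshold, 17 lost a call, 3 gained one and 18 turned sign, none of them from a called value. With each replicate left out in turn, the number of called genes among the 6 ranged from 0 to 2 for the 2 h interaction (1 as reported), from 3 to 4 for Poly I:C then PBS between 6 h and 2 h (5), from 1 to 2 for Poly I:C then LPS between 6 h and 2 h (2), and from 4 to 5 for Poly I:C then PBS against PBS then PBS at 6 h (6). It stayed as reported in the other comparisons, at 4 (6 h) and 5 (2 h) for Poly I:C before LPS. With no filter Poly I:C then PBS had 3 called genes between the times, and with the PBS-then-PBS libraries pooled the 2 h interaction had 0. Values that turned sign were -0.88 (Il1a, 2 h interaction), -0.40 (Il1a, 6 h interaction) and -1.16 (Il1b, 6 h interaction) with a pseudocount of 0.1, and -0.011 (Il18bp, PBS then LPS at 2 h), -0.069 (Il1a, 2 h interaction) and -0.053 (Il18, 2 h interaction) with pooled controls. With a replicate left out, Il1rap ranged from -0.15 to 0.037 at 6 h and from -0.27 to 0.31 at 2 h for Poly I:C before LPS, and from -0.37 to 0.21 for the difference of these. PBS then LPS against PBS then PBS at 2 h ranged from -0.19 to 0.25 for Il18bp and from -0.53 to 0.057 for Il1rap. The interactions ranged from -0.062 to 0.42 for Il1b at 6 h and from -1.02 to 1.26 for Il1a at 2 h. Between 6 h and 2 h, Il1b ranged from -0.15 to 0.32 for the effect of Poly I:C and from -0.13 to 0.34 in PBS then LPS, and Il1rn from -0.25 to 0.073 in Poly I:C then LPS. The cause was not tested. Median-of-ratios scaling and the fit with no intensity trend changed no call of the 6 genes. The scaling factors were only 0.992 to 1.04, so that alternative hardly altered the values and could change little.

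The replicate block could be fitted on the 12 numbered libraries and left 4 and 5 called genes for Poly I:C before LPS at 6 h and 2 h; the number of Poly I:C then PBS between the times was 4, and no other call changed. Deviations of like-numbered libraries correlated at -0.19 to 0.078 over 15 pairs of groups. Such values cannot decide whether like-numbered libraries share an animal or a culture, which is not stated. PBS-then-PBS libraries could be neither blocked nor left out.

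Over all tested entries, 1899 were called for PBS then LPS against PBS then PBS at 2 h, against 1176 with 1 time alone, 2873 with pooled controls and 3703 without PBS-then-LPS replicate 2. For the 2 h interaction 514 were called, against 195 with 1 time alone and 276 to 1637 with a replicate left out, and 58.8% of calls were higher, against 44.8% with a pseudocount of 0.1 and 48.0% without Poly I:C-then-PBS replicate 2. For LPS after Poly I:C at 2 h, 2725 were called, against 1543 to 1812 with a replicate left out, and for Poly I:C then PBS between the times 3636, against 2013 to 3015. Unknown depth, low levels such as those of Il1rap, and groups with 1 library limit the precision.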

Other observations

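Transcription factors known to act on these genes were listed as well, and those given here are members of that list. It held 8 genes, of which 7 were tested. Poly I:C before LPS raised 4 and lowered 2 of the 7 at 6 h, and raised 4 and lowered 0 at 2 h. Across all tested entries 23.7% were higher and 25.9% lower at 6 h, and 32.6% were higher and 28.5% lower at 2 h. Irf1, an interferon regulatory factor, was at a mean of 263 FPKM in Poly I:C then LPS, against 150.1 in PBS then LPS, at 6 h (log2 0.82 ± 0.23, limma adjusted p = 0.0135), and at 844 against 322 at 2 h (1.41 ± 0.23, limma adjusted p = 0.000411). Rela, an NF-kB subunit, rose by 1.17 ± 0.13 at 6 h and 1.02 ± 0.13 at 2 h, and Hif1a, the oxygen-regulated factor, by 1.30 ± 0.16 and 1.26 ± 0.16.

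With LPS alone, against PBS then PBS, Irf1 rose by 3.89 ± 0.28 at 6 h and 4.99 ± 0.28 at 2 h. Cebpb, a factor of myeloid genes, rose by 2.75 ± 0.31 at 6 h and 1.67 ± 0.31 at 2 h, and Spi1, which encodes PU.1, by 1.70 ± 0.14 and 0.68 ± 0.14. After Poly I:C and then PBS, against PBS then PBS, 5 of the 7 factors were higher and 1 lower at 6 h. At 2 h 6 were higher and 1 lower. Among all tested entries 18.4% were higher and 16.1% lower at 6 h, and 24.9% were higher and 22.4% lower at 2 h. Unlike most of the list, Nfkb1, an NF-kB subunit, was lower, by -0.49 ± 0.15 at 6 h and -0.40 ± 0.15 at 2 h. The list was chosen with results of these data known.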
